A study of Mus musculus with 15 samples.

Results

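The regions described here are the stretches of chromosomes 1 to 19 that were DNase I hypersensitive in all 15 macrophage libraries of the study. They were found by keeping the 15659 hotspots of highest tag density in each of the 15 lists, joining hotspots that shared at least 1 bp into union regions, and retaining the regions with a hotspot in every shortened list. Of 27615 union regions on these chromosomes, 6664 (24.1%) met the rule, and they are called core regions below. They were thus chosen by the highest tag density of their hotspots in these same libraries, and their high rank in every library is a description that follows from the rule.

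DNase I cuts DNA most readily where nucleosomes are displaced, which happens at active promoters, enhancers and insulators. A site that is accessible whatever the stimulus can be a promoter of a broadly used gene or an enhancer held open by the factors that define the cell lineage. Lipopolysaccharide (LPS), from the outer membrane of Gram-negative bacteria, acts on macrophages through Toll-like receptor 4 and opens further sites. Ikaros, the zinc finger protein named in the study's title, binds DNA and recruits chromatin remodelling complexes.

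Every group consisted of macrophages grown from bone marrow, and all mice were of the C57BL/6J strain. Wild-type (WT) cells, cells of a littermate control and Ikzf KO cells were each taken at 0, 3 and 8 h with 10 ng/ml LPS, with 2 libraries of WT, 2 of KO and 1 of the littermate at each time. The term controls below covers WT and littermate libraries, and the 3 times that share a genotype and a replicate number are called a series, so there were 5 series. The titles give 100 U of DNase for WT replicate 2 and 80 U for all others. The labels do not say which alleles the KO carries, or whether replicates came from separate mice or cultures. A p-value here reflects only how far these libraries scatter, which may be technical scatter.

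The deposited lists held 15659 (WT replicate 1, 3 h) to 132279 (KO replicate 2, 8 h) hotspots, and the shortest of them entered whole. They give no read counts, and depth is unknown. If all libraries were scaled to 1 total (not stated in the sources), the steps in tag density put relative depth at 0.525 to 1. No gene annotation of mm9, the build of the files, was used here, so regions are named by position, and neither nearby genes nor macrophage markers were analysed here. Positions are those of the lists, which do not say if counting starts at 0 or 1.

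Core regions held nearly all of the strongest hotspots and few of the weakest. Among hotspots ranked 101 to 500 by highest tag density, 88.5 to 99.5% lay in core regions, depending on the library. At ranks 4001 to 8000 the share was 52.3 to 60.3%, and at ranks 12001 to 15659 it was 7.0 to 18.5%. The first 100 ranks were an exception: in the 6 control libraries at 0 and 3 h only 61 to 80% were core, against 96 to 99% elsewhere. In those 6 libraries, 18 to 34% of the first 100 hotspots were on chromosomes X and Y, which the rule leaves out, and in the other 9 it was 1 to 4%.

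**Figure D1:**
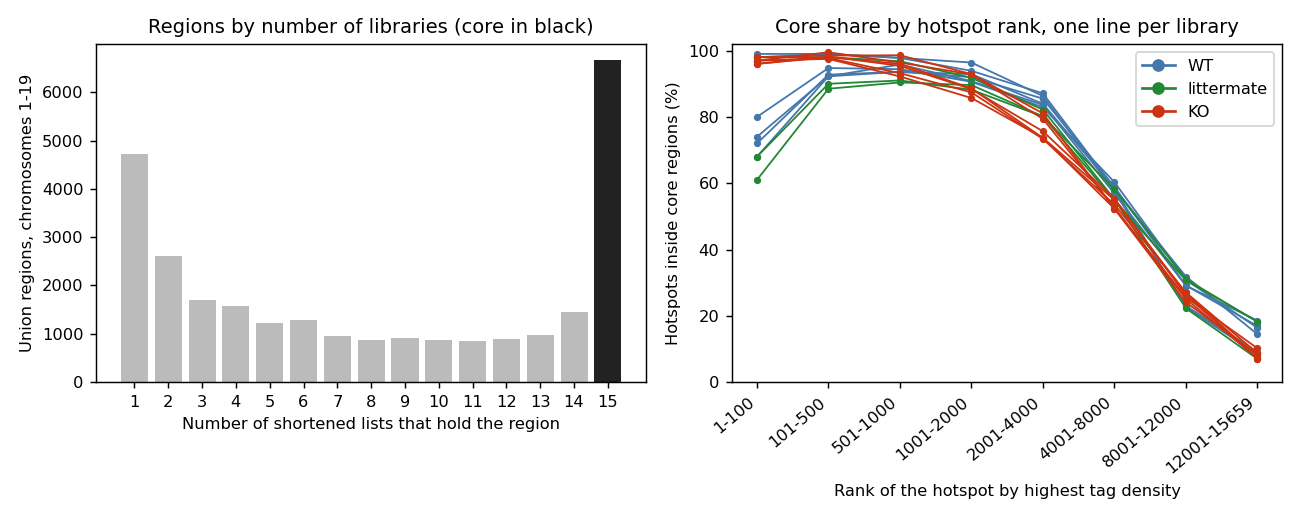
The left panel counts union regions on chromosomes 1 to 19 by how many of the 15 shortened lists hold them. The right panel gives, for each library (1 line each, coloured by genotype), the percent of hotspots in each rank class that lie in core regions. The 6664 regions in all 15 lists outnumber the 4725 in 1 list, and the share in core regions falls beyond rank 1000.

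Membership by number of lists was uneven at both ends. Regions in 1 list numbered 4725 and regions in 14 lists 1452. Of the 1452 regions that lacked a hotspot in just 1 list, 344 lacked it in the littermate library at 0 h, 273 in the littermate library at 3 h and 186 in WT replicate 1 at 0 h. Each of the 6 KO libraries was the missing one for 27 to 82 of them. The 3 regions nearest to membership ranked 15661 to 15663 in the library that excluded them. The 3 members nearest to the limit had worst ranks of 15659 (chromosome 8, 84921992 to 84927772), 15656 (chromosome 17, 33083241 to 33085104) and 15653 (chromosome 19, 5271540 to 5274782).

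Core regions were spread over all 19 autosomes. Their share of a chromosome's union regions ran from 20.2% on chromosome 1 to 28.0% on chromosome 7, and chromosome 11 held the most, 592. Joined over the 15 libraries they spanned 552 to 18678 bp, with a median of 2413 bp. Neighbouring core regions lay a median of 90411 bp apart, and 9.12% of the gaps were under 10 kb. Within a library, core regions took up 43.5 to 49.4% of the kept hotspots and 50.5 to 59.0% of their summed length. In 87.4 to 97.9% of core regions, a library had a single hotspot.

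Few core regions stayed at the very top. In all 15 libraries, 14 core regions ranked in the first 100, 232 in the first 1000 and 2926 in the first 8000. The leading member lay on chromosome 17 from 39979623 to 39985944, with ranks of 1 to 4 everywhere (mean rank 1.87). Its highest tag density was 236 to 370 in the 6 control libraries at 0 and 3 h, 562 to 679 in the 3 controls at 8 h and 1186 to 1502 in the 6 KO libraries. Its hotspot was 6138 to 6309 bp long in all 15, so its borders moved little while its density differed severalfold between groups.

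The next 4 by mean rank were much shorter. Chromosome 1 from 197067320 to 197068443 ranked 1 to 3 in every library and lay 126 kb from the highest chromosome 1 position in any list. Chromosome 19 from 61275018 to 61276298 ranked 1 to 4 and lay 66.2 kb from that chromosome's highest listed position. Chromosome 11 from 108872604 to 108873776 ranked 3 to 7, and chromosome 16 from 57391376 to 57392135 ranked 5 to 24. For the last of these, the 6 KO ranks (5 or 6) did not overlap the 9 control ranks (8 to 24). Copy number, repeats and mappability at these positions were not analysed here.

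The median core region had a best rank of 1621 and a worst rank of 8823.5 over the 15 libraries. To compare strength relative to the other regions, highest tag densities were put on 1 common scale by quantile normalization, which keeps each library's order of regions and gives all libraries the same set of values, over the 10428 regions that had a hotspot in all 15 full lists. All 6664 core regions are among them. Of the 10428, 10058 lay on chromosomes 1 to 19 and the others on X or Y. Shares of all regions tested, given below, therefore include the core itself and regions on X and Y. The rule asks for a high rank in every library, which limits how far a core region can shift. A lower share of rank shifts in the core than among all regions tested therefore follows in part from the rule. The standard deviation (SD) of the resulting log2 value over the 15 libraries had a median of 0.309 and ran from 0.0882 to 1.42. The steadiest member, on chromosome 4 from 107999319 to 108001508, ranked 90 to 278, and chromosome 5 from 135483755 to 135486973 ranked 349 to 831. The most variable, on chromosome 9 from 123781866 to 123782497, ranked 12 to 31 in the 6 control libraries at 0 and 3 h, 1703 to 2982 in the 3 at 8 h and 3479 to 14004 in the 6 KO libraries. Membership in all 15 lists thus included sites that fell far down the order in part of the libraries.

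Replicates set the scale for such shifts. Between replicates of the same genotype and time, the median core region moved by 529 to 1611.5 ranks, with the 3 KO pairs at 529 to 656.5 and the 3 WT pairs at 1094.5 to 1611.5. Between a KO and a control library of the same time it moved by 1203 to 2192.5 ranks, and between a WT and the littermate library by 871.5 to 1799, so the ranges overlapped. Within a series it moved by 965.5 to 1565.5 ranks between 0 and 3 h and by 1048 to 1365 between 0 and 8 h. The Spearman correlation of ranks across core regions was 0.679 to 0.955 for replicates, 0.630 to 0.874 for WT against littermate and 0.405 to 0.774 for KO against control, over regions that share each library's depth and threshold. The KO values depended on the control: 0.405 to 0.552 with WT replicate 1, 0.645 to 0.774 with WT replicate 2 and 0.503 to 0.726 with the littermate. At 3 h, WT replicate 2 differed from KO replicates 1 and 2 by a median of 1240.5 and 1203 ranks, and from WT replicate 1 by 1611.5.

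On the deposited scale, core hotspots differed in density mainly between 2 sets of libraries. The median of the highest tag density at 0, 3 and 8 h was 13.1, 13.5 and 48.5 in WT replicate 1. It was 14.4, 15.9 and 39.2 in WT replicate 2, and 11.3, 12.2 and 39.3 in the littermate series. The KO medians were 36.3, 35.8 and 43.5 in replicate 1 and 37.1, 35.6 and 43.6 in replicate 2. The 6 control libraries at 0 and 3 h were thus low, and the 3 controls at 8 h and all 6 KO libraries were high, with no overlap. The density was higher at 8 h than at 0 h in all 3 control series for 6635 core regions (99.6%), a count met by 97.2% of all regions tested. In both KO series it was higher for 4201 core regions (63.0%), against 58.9% of all regions tested. All regions tested include the core itself, and regions outside the core were not counted apart. Whether this broad shift is a difference of the cells or of the libraries cannot be told apart from these lists.

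Hotspot length followed the same division. Length here is that of the strongest hotspot a library had in a core region. Its median at 0, 3 and 8 h was 781, 800.5 and 1348 bp in WT replicate 1. In WT replicate 2 it was 880, 917 and 1412 bp, and in the littermate series 1032, 986 and 1815.5 bp. KO medians were 1973, 2109 and 2066 bp in replicate 1 and 1936.5, 1946 and 2095.5 bp in replicate 2. Every KO library exceeded every control library. At each time the littermate library exceeded both WT libraries.

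**Figure D2:**
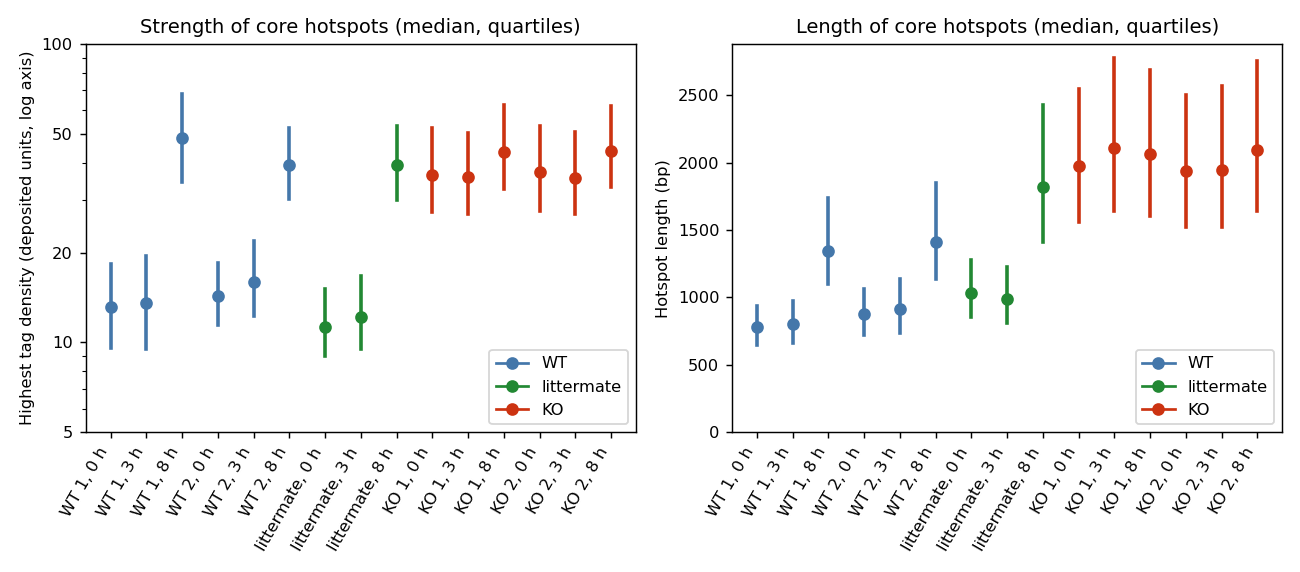
For each of the 15 libraries, the point is the median and the bar the range from the lower to the upper quartile over the 6664 core regions. Left, highest tag density in the deposited units on a log axis. Right, hotspot length in bp. The 6 control libraries at 0 and 3 h have medians of 11.3 to 15.9 in density, and the other 9 of 35.6 to 48.5.

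The longer hotspots at 8 h in controls grew outwards on both sides. The 8 h hotspot contained the whole 0 h hotspot in 93.3 to 96.7% of core regions, and its edges lay a median of 190 to 255 bp further out. The ratio of median lengths was 1.60 to 1.76 in the 3 control series. In the 2 KO series it was 1.05 and 1.08, and the 8 h hotspot contained the 0 h one in 35.3 and 46.4%. The 3 control lengths at 8 h were all above the 3 at 0 h in 5683 core regions (85.3%), where 82.4% of all regions tested did the same. Both KO lengths at 0 h were above the 3 control lengths in 6603 core regions (99.1%), against 97.0% of all tested. At 8 h KO was longer than controls without overlap in 4701 (70.5%), against 68.2% of all tested. Within KO, 8 h was longer than 0 h without overlap in 2712 (40.7%), against 39.8%.

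Tests on 1 value per library were limited by the number of series. The mean of the 5 library medians rose from 1320.5 bp at 0 h to 1747.4 bp at 8 h, with the increase seen in 5 of 5 series. The difference of 426.9 bp gave p = 0.0278 in an exact two-sided permutation test over 72 arrangements (times permuted within genotype) and an adjusted p of 0.139 over the 5 tests of this kind, so it did not pass after adjustment. From 0 to 3 h the difference was 31.2 bp (exact permutation p = 0.5, adjusted 0.625), with 4 of 5 series higher at 3 h. KO series averaged 2021 bp and control series 1108 bp. That difference of 913.0 bp had the smallest p that 2 against 3 series allow in an exact permutation test, 0.1 (adjusted 0.25).

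Core hotspots stood above the rest of their own list by a similar factor in every genotype. The median density of core hotspots was 1.5 to 2.20 times that of the other kept hotspots, a gap that the rule favours. The factor averaged 1.72 at 0 h and 1.86 at 8 h, higher in 3 of 5 series (exact two-sided permutation p = 0.306, adjusted 0.509). It was 1.74 in KO and 1.80 in control series (exact permutation p = 0.9, adjusted 0.9), and the sign of this last difference turned when WT replicate 1 was left out (0.0476).

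Longer core hotspots tended to be stronger, more so in the control libraries at 0 and 3 h. Across the 6664 regions of a library, the Spearman correlation of length with highest tag density was 0.283 to 0.575 in the 6 control libraries at 0 and 3 h. It was 0.141 to 0.240 in the 3 controls at 8 h and 0.0917 to 0.144 in the 6 KO libraries. These values are across regions that share a library, not across replicates.

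After 8 h of LPS, 298 core regions rose and 159 fell in controls relative to the other regions (limma on the quantile-normalized log2 density, 9 groups, Benjamini-Hochberg adjusted p under 0.05 over all 10428 regions). These are 4.47% and 2.39% of the core, against 5.54% (higher) and 5.9% (lower) of all regions tested. The largest rise was on chromosome 4 from 147460164 to 147462902. Its rank went from 11668, 10905 and 3951 at 0 h (WT replicates 1 and 2, littermate) to 423, 341 and 327 at 8 h. Its density rose from 6.77, 8.84 and 11.3 to 104, 86.8 and 85.6. No 8 h value overlapped a 0 h value, and the log2 change was 1.87 (SE 0.15, adjusted p = 1.3e-06).

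The next 2 rose from the middle of the lists as well. Chromosome 5 from 115346307 to 115349813 went from ranks 10287, 6606 and 6949 to 759, 388 and 308, a log2 change of 1.71 (SE 0.17, adjusted p = 9.5e-06). Chromosome 2 from 132037380 to 132038880 went from 4601, 2594 and 4322 to 144, 80 and 95, a log2 change of 1.65 (SE 0.17, adjusted p = 1.3e-05). Both had covered most of the distance by 3 h, at ranks 791 to 1724 and 272 to 932. The 3 largest falls all lay in a group of neighbouring regions on chromosome 11 that is described last. All 457 calls kept their sign when any series was left out, but 76 of the rises and 53 of the falls were called in each of the 5 fits that leave out a series, the 6 regions of largest change included. The count was 1648 without WT replicate 1, 1636 without WT replicate 2, 250 without the littermate series, and 137 and 136 without KO replicates 1 and 2, whose spread enters the same model.

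At 3 h, 232 core regions rose and 197 fell in controls, which is 3.48% and 2.96% of the core against 5.38% and 4.58% of all regions tested. The region of largest rise, on chromosome 2 from 180323134 to 180326313, went from ranks 8512, 7247 and 9685 to 840, 242 and 949 and stood at 1630, 1788 and 2877 at 8 h. Its log2 change at 3 h was 1.68 (SE 0.16, adjusted p = 1e-04). Chromosome 15 from 76073170 to 76074411 went from 13115, 12807 and 10813 to 1564, 1650 and 1057 (log2 change 1.60, SE 0.14, adjusted p = 8.7e-05) and kept ranks of 1578 to 1778 at 8 h. The region of largest fall, on chromosome 2 from 131029489 to 131031315, went from 1405, 766 and 528 to 11777, 9399 and 11857 (log2 change -1.77, SE 0.16, adjusted p = 8.7e-05). In KO the same region ranked 234 and 440 at 0 h and 2263 and 1789 at 3 h. Of the 429 calls, 28 rises and 10 falls were called in each fit that leaves out a series. The count ran to 2066 and 1585 without WT replicates 1 and 2, 167 without the littermate series, and 38 and 39 without KO replicates 1 and 2.

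In KO, fewer core regions passed the test after LPS, with 2 libraries against 2 where controls had 3 against 3. A KO change thus had to be larger to pass, and the lower counts do not show a weaker response. Called rises had a median log2 change of 1.03 and 1.05 in KO at 3 and 8 h, against 0.75 and 0.74 in controls. At 3 h, 63 rose and 21 fell, 0.945% and 0.315% of the core against 1.27% and 0.614% of all regions tested. At 8 h, 80 rose and 11 fell, 1.20% and 0.165% of the core against 1.4% and 0.355% of all tested. Chromosome 7 from 50834322 to 50836217 ranked 8771, 418 and 823 at 0, 3 and 8 h in KO replicate 1 and 10526, 318 and 732 in KO replicate 2. Its log2 change was 1.95 at 3 h (SE 0.21, adjusted p = 0.0031) and 1.64 at 8 h (SE 0.21, adjusted p = 0.0029). In controls it went from 4758, 8778 and 8309 to 2355, 1963 and 1413 and then to 4504, 3053 and 2679.

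Other rises in KO were also seen as values in controls. Chromosome 5 from 20691308 to 20696117 went from 10577 and 7980 to 693 and 630 at 8 h in KO (log2 change 1.67, SE 0.19, adjusted p = 0.0023) and from 10012, 10828 and 9344 to 3504, 2067 and 1894 in controls. Chromosome 16 from 23608044 to 23617317 went from 13900 and 13173 to 1827 and 1315 in KO (log2 change 1.60, SE 0.18, adjusted p = 0.0023) and from 10816, 8214 and 6630 to 2152, 2507 and 1205 in controls. With only 2 KO series, none of these calls is made when 1 of them is left out: 0 core regions were then called at either time. Leaving out WT replicate 1 gave 844 calls at 3 h and 1353 at 8 h. Leaving out WT replicate 2 gave 857 and 1357.

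Calls overlapped in part between genotypes. Of the 298 core regions that rose by 8 h in controls, 44 also rose in KO, which is 14.8% of the control calls and 55.0% of the 80 KO calls. Over all regions tested the overlap was 84, which is 14.5% of 578 control calls and 57.5% of 146 KO calls. The median log2 change of the 298 was 0.74 in controls and 0.37 in KO. Of the 159 that fell in controls, 4 fell in KO (2.52%, against 16 of 615 or 2.60% over all regions tested), and their median change was -0.77 in controls and -0.20 in KO. The 298 and the 159 were chosen by passing in controls, so their medians favour a larger change there than in KO. The counts set passing against not passing. Neither the counts nor the medians are a test of a difference between genotypes. That test is the interaction given below.

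**Figure D3:**
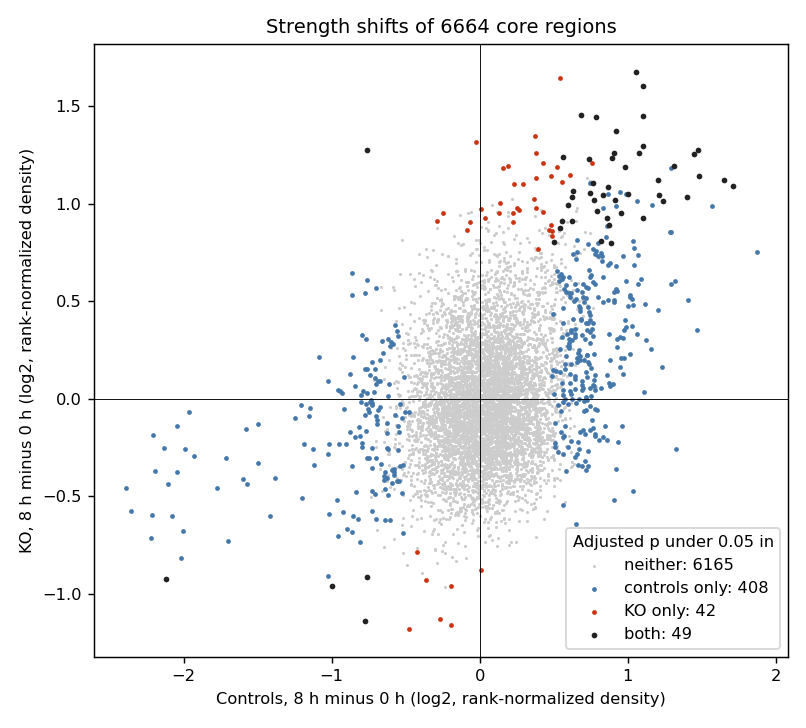
Each point is a core region, with the log2 change in quantile-normalized density from 0 to 8 h in controls on the horizontal axis and in KO on the vertical axis, coloured by which comparison passed at an adjusted p under 0.05. Of 6664 regions, 49 passed in both, 44 of them higher in both. The points at the far left, below -2 in controls, are mostly the chromosome 11 group.

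KO was also compared with controls at each time. At 0 h, 775 core regions were higher and 640 lower in KO, 11.6% and 9.60% of the core against 12.5% and 11.6% of all regions tested. At 3 h, 421 were higher and 323 lower, 6.32% and 4.85% of the core against 7.1% and 7.13% of all tested. At 8 h, 322 were higher and 271 lower, 4.83% and 4.07% against 5.21% and 4.61%. With quantile normalization the share among core regions was thus near or below that among all regions in each direction. The rule limits rank shifts in the core, so a lower share there is no sign of stability. Centring each library on its median instead changed the 0 h split to 1276 higher and 678 lower, 19.1% and 10.2% of the core against 15.9% and 15.1% of all regions tested, so that the higher share was then above the background. Strength and length of whole libraries, described above, differed between KO and controls at 0 and 3 h and much less at 8 h in density, and their part in these counts was not tested.

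At 8 h, where library medians of density were closest, the 3 largest differences below controls kept the same order at every time. Chromosome 1 from 90171771 to 90176057 ranked 40, 62, 22, 49, 130, 29, 76, 179 and 67 in the 9 control libraries (WT replicate 1, WT replicate 2 and littermate, each at 0, 3 and 8 h) and 3107, 5004, 3661, 3177, 2484 and 2542 in the 6 KO libraries. It was thus among the strongest sites of every control library and of middle rank in every KO library, with a log2 difference of -1.88 at 8 h (SE 0.19, adjusted p = 0.00013). Its density at 8 h was 178, 135 and 117 in controls and 45.5 and 53.8 in KO.

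The other 2 showed the same order. Chromosome 9 from 21419705 to 21422129 ranked 12 to 412 in controls and 1959 to 4177 in KO, with a log2 difference of -1.84 at 8 h (SE 0.27, adjusted p = 0.0016). Chromosome 5 from 86493385 to 86496784 ranked 122 to 555 in controls and 4329 to 6883 in KO, with -1.67 (SE 0.16, adjusted p = 0.00013). In none of these 3 regions did a KO library overlap a control library.

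In the opposite direction, 2 regions were weak in controls and strong in KO at 8 h. Chromosome 8 from 124668086 to 124669761 ranked 8881 to 15485 in the 9 control libraries. At 0, 3 and 8 h it ranked 3622, 3131 and 873 in KO replicate 1 and 3914, 2635 and 882 in KO replicate 2, with a log2 difference of 1.93 at 8 h (SE 0.22, adjusted p = 0.00038). Chromosome 7 from 105575075 to 105577503 ranked 14772, 13942 and 9433 in controls at 8 h and 867 and 676 in KO, a log2 difference of 1.96 (SE 0.17, adjusted p = 7.5e-05). The littermate library at 0 h, at rank 1704, lay within the KO range of 676 to 3010, so only this region of the pair overlapped over all times.

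**Figure D4:**
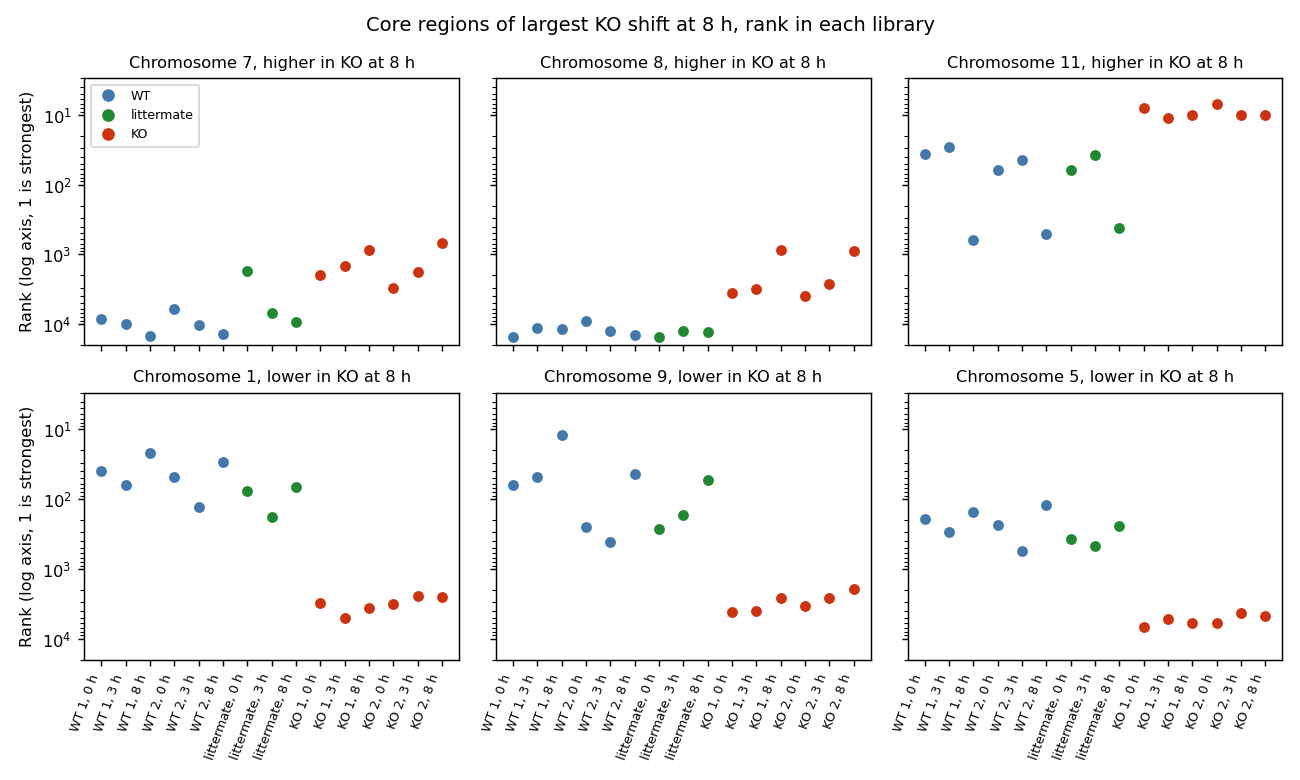
Each panel is 1 of the 6 core regions with the largest difference between KO and controls at 8 h, 3 higher (top) and 3 lower (bottom). The vertical log axis is the rank by highest tag density, with the strongest at the top, and each point is a library. In the lower panels all 9 control libraries rank 12 to 555 and all 6 KO libraries 1959 to 6883.

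Genotype differences held over time for a smaller set. At all 3 times, 96 core regions were called higher and 118 lower in KO, 1.44% and 1.77% of the core against 1.46% and 2.09% of all regions tested. Without regard to a test, all 6 KO libraries lay above all 9 controls in 261 core regions and below them in 309, where 3.92% and 4.64% of the core compare with 3.52% and 4.56% of all tested. The clearest of the higher ones lay on chromosome 19 from 43585292 to 43587603, at ranks 864 to 1298 in KO and 4769 to 13721 in controls. Its log2 difference was 1.35 at 0 h (SE 0.23, adjusted p = 0.0014) and 1.56 at 3 h (SE 0.23, adjusted p = 0.00042). Among the lower ones, chromosome 15 from 74915632 to 74917803 ranked 1 to 7 in controls and 20 to 81 in KO, with -2.46 at 3 h (SE 0.20, adjusted p = 1.6e-06).

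The genotype calls depended on which series were kept. The model takes its spread only from groups with 2 libraries. Without a KO series these are the WT groups, and without a WT series they are the KO groups. Ranks moved more between WT than between KO replicates, as given above. Most calls, here and for LPS in controls, had no overlap between the compared groups. Their sign could therefore hardly change when a series was left out. The number of calls at 0, 3 and 8 h was 51, 29 and 0 without KO replicate 1 and 41, 49 and 0 without KO replicate 2. At 0 h these were 1 higher and 50 lower without KO replicate 1, and 0 higher and 41 lower without KO replicate 2. The count was 3193, 1969 and 1950 without WT replicate 1, and 3736, 3327 and 2762 without WT replicate 2. With littermate libraries alone as controls, 882, 376 and 81 core regions were called. All calls kept their sign in each of these fits that leave out a series, and 35 of the lower calls at 0 h and 24 at 3 h were called in every one. Of the higher calls, 0 of 775 at 0 h and 2 of 421 at 3 h were, and at 8 h 0 calls in either direction.

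The change from 0 to 8 h differed between KO and controls at 63 core regions, 44 with a more positive change in KO and 19 with a more negative one. This is 0.660% and 0.285% of the core against 2.69% and 0.537% of all regions tested, which include X and Y. At 3 h, 0 core regions and 0% of all regions tested passed (limma), with 519 at an unadjusted p under 0.05 and 0 to 3 passing under other settings with all series kept. Chromosome 8 from 71430563 to 71437000 had the largest positive difference at 8 h. Its ranks went from 8832, 4400 and 2309 to 12496, 9985 and 10836 in controls and from 6953 and 8059 to 952 and 1150 in KO, a difference in log2 change of 2.04 (SE 0.28, adjusted p = 0.00089).

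The largest negative differences were at sites whose ranks improved in controls and worsened in KO. Chromosome 2 from 167601784 to 167604048 went from 2761, 5382 and 9154 to 380, 648 and 558 in controls and from 568 and 705 to 960 and 1271 in KO (difference -1.58, SE 0.27, adjusted p = 0.0037). Chromosome 6 from 113255830 to 113259022 went from 176, 143 and 230 to 14, 15 and 18 in controls and from 28 and 24 to 105 and 71 in KO (difference -1.51, SE 0.22, adjusted p = 0.0012). At 0 h both KO libraries therefore stood above all 3 controls at these 2 sites, and at 8 h below them. Without either KO series, 0 interaction calls were made, whereas leaving out WT replicate 1 gave 1074 at 8 h and 950 at 3 h, and leaving out WT replicate 2 gave 1060 and 599.

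Length was also compared after centring log2 length on each library's median. Before centring, the median change in log2 length over all regions tested was 0.76 for controls from 0 to 8 h. It was 1.11, 1.19 and 0.39 for KO against controls at 0, 3 and 8 h, and -0.68 for the interaction at 8 h. Calls below are relative to the library median, so a region called shorter need not have shortened in bp. From 0 to 8 h in controls, 1094 core regions lengthened more and 1593 less, 16.4% and 23.9% of the core against 18.8% and 20.6% of all regions tested. Without centring, 6144 were longer and 3 shorter, 92.2% and 0.0450% of the core against 90.0% and 0.153% of all tested.

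The same held between genotypes at 0 and 3 h. At 0 h, 1040 core regions were relatively longer and 1728 relatively shorter in KO, 15.6% and 25.9% of the core against 17.5% and 22.1% of all tested. At 3 h the numbers were 1073 and 1777, 16.1% and 26.7% of the core against 18.2% and 22.6%. At 8 h they were 348 and 260, 5.22% and 3.90% against 4.99% and 4.07%. Without centring they were 6530 and 1, 6542 and 0, and 3158 and 15 at the 3 times. The longer ones were then 98.0%, 98.2% and 47.4% of the core, against 96.1%, 96.3% and 44.1% of all tested. For LPS in controls at 3 h, 333 were relatively longer and 294 relatively shorter, 5.00% and 4.41% of the core against 5.87% and 6.26% of all tested. For LPS in KO it was 106 and 49 at 3 h, 1.59% and 0.735% against 1.54% and 0.643%. At 8 h it was 103 and 36, 1.55% and 0.540% against 1.44% and 0.479%.

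The largest relative changes in length came to several kb. Chromosome 15 from 35222353 to 35233272 was 481, 619 and 1110 bp long in controls at 0 h, 4542, 6816 and 10706 bp at 8 h, and 4799 to 10919 bp in the 6 KO libraries (relative log2 change in controls 2.53, SE 0.19, adjusted p = 5.6e-05). Chromosome 6 from 123208747 to 123218833 was 594 to 1685 bp in the 6 WT libraries, 931, 1133 and 7946 bp in the littermate series and 8087 to 9216 bp in KO (relative log2 difference at 3 h 2.35, SE 0.09, adjusted p = 7.3e-06). Chromosome 19 from 12083632 to 12088541 measured 557, 563 and 629 bp in controls at 0 h, 1696, 1649 and 3440 bp at 3 h, and 4681 to 4889 bp in every KO library. Its relative change in controls at 3 h was 1.87 (SE 0.09, adjusted p = 3.8e-05).

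One of the steadiest core regions in strength was not steady in length. Chromosome 11 from 69475410 to 69480647 ranked 200 to 501 in all 15 libraries (SD of log2 density 0.107). In KO its strongest hotspot was 5099 and 5097 bp long at 0 h, 1406 and 1305 bp at 3 h, and 5203 and 5222 bp at 8 h, while all 9 control lengths were 838 to 1170 bp. The relative log2 change in KO at 3 h was -1.97 (SE 0.13, adjusted p = 0.00037). The difference of that change from controls was -1.87 (SE 0.17, adjusted p = 0.0025), but 0.14 when the lengths of all hotspots in the region were summed.

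At the extremes of length, chromosome 19 from 5834942 to 5850957 had the longest hotspots by mean over the 15 libraries, at 1292 to 2651 bp in the 6 control libraries at 0 and 3 h, 3444, 3640 and 7278 bp at 8 h and 11638 to 15877 bp in KO. Its rank stayed within 105 to 461. The shortest by the same mean was chromosome 2 from 90235020 to 90235572, at 373 to 498 bp in all 15 libraries, with ranks of 303 to 1061 in KO and 1307 to 10549 in controls. Length in these 2 regions differed by over an order of magnitude in KO, and the shorter one ranked higher in all 6 KO libraries than in any control.

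Length calls depended on single series too. The interaction of genotype and LPS was called for 61 core regions lengthening more and 51 less in KO at 3 h, 0.915% and 0.765% of the core against 0.911% and 0.796% of all tested. At 8 h it was called for 265 and 417, 3.98% and 6.26% against 3.66% and 6.79%. Without either KO series both counts were 0, as were the calls for LPS in KO except for 2 at 3 h without KO replicate 2. Without WT replicate 1 the interaction gave 608 calls at 3 h, and without WT replicate 2 it gave 556. At 8 h it gave 1437 without either of them. LPS in KO gave 254 calls at 3 h, and 235 at 8 h, without either WT replicate. LPS in controls at 3 h gave 1253 without WT replicate 1, then 1164 without WT replicate 2. LPS in controls gave 1630 calls at 8 h and 88 at 3 h without either KO series, and 314 at 3 h without the littermate series. KO against controls at 0, 3 and 8 h gave 539, 678 and 0 calls without KO replicate 1 and 669, 1041 and 3 without KO replicate 2. At 8 h it gave 945 without WT replicate 2.

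A minority of core regions went against the general rise in density. In all 3 control series, 19 core regions had a lower highest tag density at 8 h than at 0 h. They were 0.285% of the core, against 1.82% of all regions tested, which include X and Y. Of these 19, 12 belong to a run of 16 core regions (of 21 union regions) at the low end of chromosome 11, from 3023481 to 3097144. This group was picked out after its values were seen and is described without a test of its own. The lowest chromosome 11 position in any list is 3005150, so the group lies at the edge of the listed sequence.

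In the 6 control libraries at 0 and 3 h the median density of the 16 regions was 48.0 to 60.9, at median ranks of 43 to 159.5. At 8 h it was 42.1, 32.6 and 30.8 in WT replicates 1 and 2 and the littermate series, at median ranks of 4499 to 6022.5, and in the 6 KO libraries it was 29.3 to 40.3, at 3111 to 8745.5. While the core median rose from 0 to 8 h in controls, 12 of the 16 declined in all 3 control series, 2 rose in all 3 and 2 rose in some, and the median rank of the group fell. For example, chromosome 11 from 3050542 to 3051785 had densities of 63.3, 49.0 and 50.5 at 0 h and 33.8, 31.6 and 26.3 at 8 h in controls, and 22.3 to 28.6 in KO (log2 change in controls -2.39, SE 0.16, adjusted p = 6.1e-07).

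**Figure D5:**
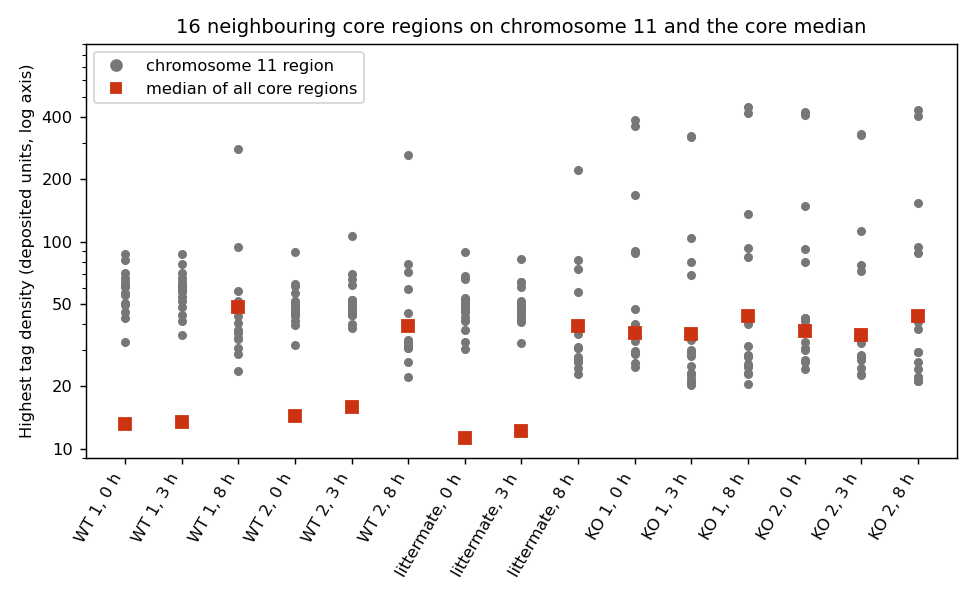
Grey points are the highest tag densities of the 16 core regions at the low end of chromosome 11 in each library, on a log axis in the deposited units, and red squares are the median of all 6664 core regions. The core median is 11.3 to 15.9 in controls at 0 and 3 h, below all 16 regions, and 35.6 to 48.5 in the other 9 libraries, within their range.

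On the quantile-normalized scale, 15 of the 16 regions were called lower at 8 h in controls, 13 lower in KO at 0 h and 14 had a positive interaction at 8 h, so they supply part of each of those counts. The shares called among all regions tested, given above for these comparisons, were 5.9%, 11.6% and 2.69%. The group was picked after these same values were seen and its regions are neighbours, so its counts beside those shares are no test. In deposited density, both KO libraries lay below all 3 controls in 10 of the 16 at 0 h, 11 at 3 h and 7 at 8 h, and above them in 4, 4 and 6.

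The 19 regions with declining density were all called lower in KO at 0 h and at 3 h on the quantile-normalized scale, 4 of them at 8 h, against 11.6%, 7.13% and 4.61% of all regions tested. A positive interaction at 8 h was called in 18, of the 44 core regions that had one. The 19 were chosen by control densities at 0 and 8 h, and those libraries enter the comparisons at 0 and 8 h and the interaction. The counts for these comparisons therefore follow in part from the choice. The 3 h control libraries are of the same series, and their densities at these regions were mostly near those at 0 h. The 3 h count is therefore not independent of the choice either, and none of the counts is a test of the 19. In deposited density, both KO libraries lay below all 3 controls in 16 of the 19 at 0 h, 18 at 3 h and 13 at 8 h.

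A pair of the 16 had far higher densities in KO than the others. Chromosome 11 from 3090942 to 3097144 had KO densities of 323 to 423. It ranked 29 to 62 in controls at 0 and 3 h, 615, 504 and 414 at 8 h, and 7 to 11 in all 6 KO libraries (log2 difference at 8 h 1.87, SE 0.16, adjusted p = 7.5e-05). Chromosome 11 from 3023481 to 3024486 had KO densities of 321 to 446 and rose in controls from 86.8, 88.7 and 88.9 at 0 h to 280, 263 and 222 at 8 h. Its KO ranks, 8 to 12, fell within its control ranks, 5 to 20.

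Outside chromosome 11, the declining regions included the most variable members of the core. Chromosome 17 from 36621282 to 36622077 ranked 21 to 48 in controls at 0 and 3 h, 3820, 1857 and 3585 at 8 h, and 6135 to 9699 in KO (log2 difference at 0 h -2.61, SE 0.19, adjusted p = 6.3e-07). The chromosome 9 region named above as most variable and the chromosome 15 region that ranked 1 to 7 in controls are also among the 19. The density of the latter was 354 to 395 at 0 h and 236 to 262 at 8 h in controls, and 146 to 198 in KO. In the 3 regions named here the high values were those of the 6 control libraries whose core hotspots were otherwise weakest and shortest, and the part of library quality in this was not tested.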

How the data were processed

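DNase-seq hotspot lists of 15 libraries were used. CASAVA and the build mm9 are named in the submitters' processing notes. How reads were aligned and how hotspots were called and thresholded is not given in the sources used here. Hotspots come with position, highest and mean tag density, Z-score and p-value, per the file headers. Tag density was taken as a signal on the scale that the authors deposited for each library. Their deposited Z-score served as a score for ranking in an alternative, and the deposited p-value was not used. Members, lists and tests were chosen with earlier results of these data known. Lists were shortened over chromosomes 1 to 19, X and Y, and core regions were kept on 1 to 19. In a region with several hotspots the one of highest density was used. Regions with a hotspot in all 15 full lists (10428) were fitted with limma 3.58.1 (R 4.3.3) in 9 groups, on quantile-normalized log2 density (pseudocount 0) or median-centred log2 length, with p-values adjusted over all of them by the Benjamini-Hochberg method (threshold 0.05) and tested on simulated data. Library medians were compared by exact permutation (scipy 1.17.1). Named regions are the 5 of lowest mean rank, and per comparison the 3 (length: 2) of largest change in each direction among calls without overlap, the 3 steadiest, most variable, longest and shortest, and the 3 nearest the limit, of which those of most use are printed; the chromosome 11 group, the 19 declining regions and those apart at all times were added after values were seen. Depth is unknown, so no interval for counting error is given.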

Additional observations from a re-analysis of the deposited data

Results flagged for a closer look

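The response to LPS differed between KO and controls, by a test of the difference itself, at 63 core regions in strength at 8 h. In length it differed at 112 core regions at 3 h and at 682 at 8 h. In strength, more positive and more negative changes in KO were 0.660% and 0.285% of the core, against 2.69% and 0.537% of all regions tested. In length they were 0.915% and 0.765% against 0.911% and 0.796% at 3 h, and 3.98% and 6.26% against 3.66% and 6.79% at 8 h. The core shares were thus near or below those of all regions tested, and for strength a lower share follows in part from the rule. The counts of 63, 112 and 682 became 127, 19 and 254 with the series as a replicate block. With 6 groups in place of 9 they were 35, 26 and 242. In all 3 cases 0 calls were made without either KO series, and the part of the weak control libraries at 0 and 3 h was not tested.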

How the results depend on the processing

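The lists limit these results in 2 ways: depth is unknown, and the 6 weak libraries are all controls at 0 or 3 h, so strength and length of a library cannot be told apart from genotype and time. Over 620 values of named regions under settings that keep all series, 566 kept direction and side of the threshold, 47 lost and 4 gained the call, and 3 turned. Those 3 turned when the lengths of all hotspots of a region were summed: chromosome 16 from 23979647 in KO against controls at 8 h (-0.12), chromosome 11 from 69475410 in the 3 h interaction (0.14) and chromosome 8 from 108527161 in the 8 h interaction (-0.22). The cause of changed counts was not tested.

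The number of core regions was 2833 with lists cut to 7830 hotspots, 10061 with full lists and 476 when hotspots had to cover 50% of the region, and 6792 to 7499 without 1 series. The length difference from 0 to 8 h was 426.9 bp with the replicate block (sign changes within series, exact permutation p = 0.0625) and 337.75 to 510.4 bp without 1 series. From 0 to 3 h it was 5.0 to 50.5 bp without 1 series, and for KO against controls 847.25 to 997.9 bp. The density factor moved by 0.0837 to 0.213 from 0 to 8 h and by -0.140 to 0.0476 in KO without 1 series, and by 0.0422 in KO with means in place of medians.

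The labels do not say that a replicate number marks a shared animal or day. In WT the number also marks the DNase dose, 80 U for replicate 1 and 100 U for replicate 2. Both KO replicates had 80 U. Deviations of same-numbered libraries correlated at 0.39 to 0.49 in WT and at -0.04 to 0.19 in KO for strength. With the series as a replicate block, strength calls were 758 (controls, 3 h), 718 (controls, 8 h), 169 (KO, 3 h), 201 (KO, 8 h), 3 (interaction, 3 h) and 127 (interaction, 8 h). Length calls with that block were 207 (controls, 3 h), 87 (KO, 3 h), 90 (KO, 8 h), 19 (interaction, 3 h) and 254 (interaction, 8 h).

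With 6 groups in place of 9, strength calls were 252 (controls, 3 h), 23 (KO, 3 h), 41 (KO, 8 h) and 35 (interaction, 8 h), and length calls 235, 83, 79, 145 (KO against controls, 8 h), 26 (interaction, 3 h) and 242 (interaction, 8 h), the first 3 in the same order as for strength. With littermate libraries alone as controls, strength calls were 882, 376 and 81 for KO against controls at 0, 3 and 8 h and 2 and 31 for the interaction at 3 and 8 h, and length calls 1806 at 0 h, 179 at 8 h and 381 for the interaction at 8 h. Median centring gave 142 and 198 strength calls for KO at 3 and 8 h and 101 for the 8 h interaction. Z-scores gave 718 and 971 for controls at 3 and 8 h, 1278 for KO against controls at 3 h, and 1 and 146 for the interactions. Summed length gave 1037 (controls, 3 h), 67 and 62 (KO, 3 and 8 h) and 351 (KO against controls, 8 h). Without centring, length calls were 403 and 6147 (controls, 3 and 8 h), 6531, 6542 and 3173 (KO against controls) and 74 and 3970 (interactions), and quantile normalization gave 379 for KO against controls at 8 h.

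Without 1 series, strength calls ranged over 38 to 2066 and 136 to 1648 in controls at 3 and 8 h, 0 to 857 and 0 to 1357 in KO, 41 to 3736, 29 to 3327 and 0 to 2762 for KO against controls at 0, 3 and 8 h, and 0 to 950 and 0 to 1074 for the interactions. Length calls ranged over 88 to 1253 and 1630 to 3044 in controls, 0 to 254 and 0 to 235 in KO, 539 to 3358, 678 to 3508 and 0 to 945 for KO against controls, and 0 to 608 and 0 to 1437 for the interactions. A group left with 1 library was assumed to vary like the others.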
